A study of Mus musculus with 25 samples.

Results

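Rn45s is the mouse gene for the 45S precursor of ribosomal RNA. The region studied here is the plus strand of 1 window of 15000 nt on chromosome 17 of mouse build mm9. It was chosen by its coordinates alone and is taken here as a copy of Rn45s. Its events lay at chr17:39979938-39986081. It is 1 of 263767 windows of that size and of 1 strand that held crosslink events in any of the 25 libraries. The libraries together held 193089 events on this strand of the locus and 39 on the opposite strand.

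RNA polymerase I transcribes the 45S precursor in the nucleolus. The precursor holds the 18S, 5.8S and 28S ribosomal RNAs, which are cut out of external and internal spacers. Genomes carry many near-identical copies of the unit, and mature ribosomal RNA is the most abundant RNA of a cell, so that its reads are commonly met in crosslinking libraries. Reads from other copies cannot be told apart from reads of this one, and the treatment of reads with several matches is not stated in the labels or headers. No event was assigned to a mature ribosomal RNA or to a spacer, so precursor and mature RNA are not told apart here. How much of the 45S unit the events span was not looked up, so the shares need not cover all of its ribosomal RNAs. SRSF7 is a serine/arginine-rich splicing factor with an RNA recognition motif and a zinc knuckle, and it also accompanies mRNA to the cytoplasm.

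All libraries came from P19 cells, a mouse embryonal carcinoma line. In iCLIP, UV light of 254 nm links protein to RNA, an antibody pulls down the protein with its bound RNA, and the end of each cDNA marks a crosslink event. With an anti-EGFP antibody, cells expressing GFP-tagged SRSF7 gave 2 libraries of the variant labelled mutZn, 2 of the variant labelled D27aa and 3 of the unmutated protein (WT), and each of these groups has 1 library without UV. In piCLIP, the same tagged WT protein was taken from polysomal fractions (poly_IP, 2 libraries) and monosomal fractions (mono_IP, 2 libraries), each with 1 library titled IgG, whose labels nevertheless list anti-EGFP. With an anti-SRSF7 antibody there were 2 libraries titled RRM_OE, 2 titled endo_OE, 1 of wild-type cells (endo_WT) and 2 titled GFP_OE, with 1 GFP_OE library without UV and 1 without antibody. Apart from endo_WT, all anti-SRSF7 libraries carry the same SRSF7-GFP overexpression genotype in their labels, which is also that of the WT and piCLIP libraries. The headers call 1 RRM_OE library truncated, and they give the same word for the library titled GFP_OE without UV. Titles were used for the groups. Neither the promoters of the tagged proteins nor the number of clones is stated in the labels.

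Library depth differed by several orders of magnitude, from 1153 events in the mono IgG library to 11782376 in mutZn 3. The events at the locus numbered 1212 to 73970 in the 7 UV anti-GFP libraries, 349 to 14363 in the 7 UV anti-SRSF7 libraries, 42 to 340 in the 4 piCLIP immunoprecipitates and 19 to 1087 in the 7 controls. The mono IgG library had 19 locus events, poly IgG 31 and GFP_OE without UV 26, so their values are coarse. The headers place the libraries in 6 sequencing runs. The headers give WT 3 and WT 4 the same run and the same replicate number, and nothing beyond the design text's mention of biological replicates shows that the libraries of a group came from separate cultures, so the p-values measure the spread between these libraries.

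Events at the locus made up 0.229% to 7.01% of a library. The share was 0.628% and 0.721% in mutZn, 0.742% and 0.858% in D27aa, and 0.547%, 0.956% and 0.721% in WT. The matching libraries without UV had 0.769% for mutZn, 0.993% for D27aa and 1.22% for WT. Every UV anti-GFP library was thus below the control of its own genotype. By events the locus ranked 2 or 3 among all windows in each UV anti-GFP library.

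The anti-SRSF7 libraries held more. The share was 1.96% and 2.97% in RRM_OE, 2.59% and 3.22% in endo_OE, 1.15% and 3.04% in GFP_OE and 1.16% in endo_WT. GFP_OE 3 and endo_WT lay lowest, with the other 5 above them. GFP_OE without UV had 1.45% (26 of 1789 events, 95% Wilson interval 0.994% to 2.12%), and GFP_OE without antibody had 7.01% (216 of 3080 events, 6.16% to 7.97%), the highest share of the 25 libraries. In the library without antibody the window next in size was the plus strand of the mitochondrial genome, with 1.30% of events. The locus ranked first of all windows in 6 libraries, namely RRM_OE 4, endo_OE 4, endo_OE 5, GFP_OE 4, GFP_OE without antibody and D27aa without UV.

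In piCLIP the share was 0.298% and 0.229% in poly_IP and 0.277% in its IgG library (31 of 11177 events, 0.195% to 0.393%). It was 0.647% and 0.550% in mono_IP and 1.65% in its IgG library (19 of 1153 events, 1.06% to 2.56%). The polysomal control therefore lay between its immunoprecipitates, and the monosomal control lay above both of its own. The intervals cover counting error only, since amplified cDNAs need not be independent molecules.

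**Figure D1:**
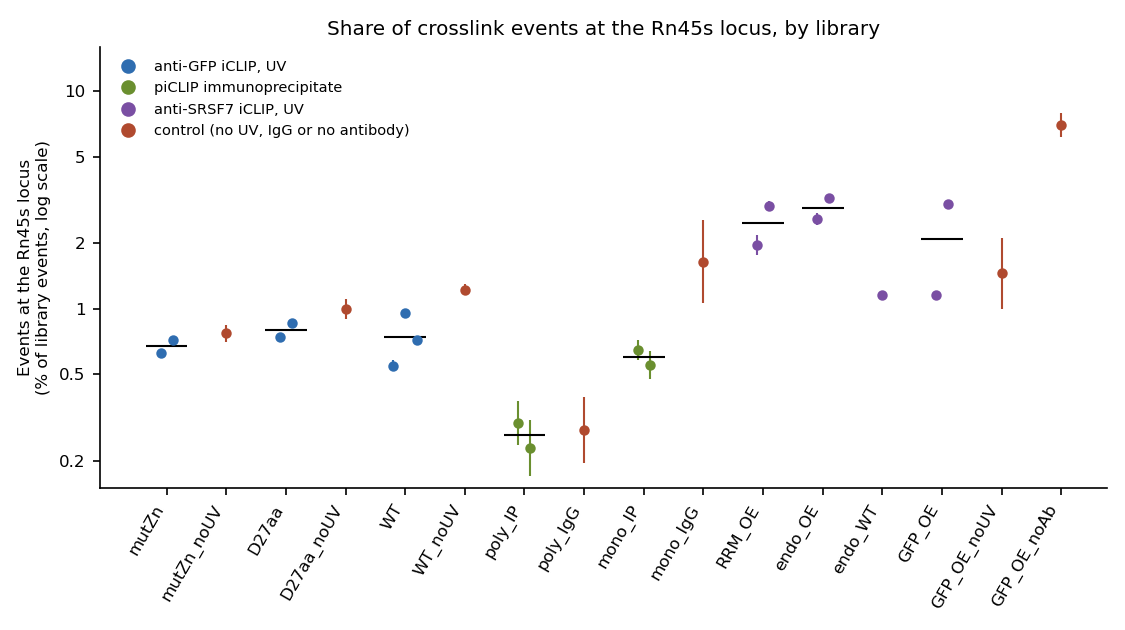
Share of library events that lie on the plus strand of the Rn45s locus, in percent on a log scale, for each of 25 libraries. Points are libraries with 95% Wilson intervals and black lines are means of groups with 2 or 3 libraries. The library without antibody stands highest at 7.01% and poly_IP 2 lowest at 0.229%.

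No test found a higher share of events at the locus in immunoprecipitates than in their controls. Over the 4 groups with a control without UV, the 9 UV libraries averaged 1.04% ± 0.773 and the 4 libraries without UV 1.11% ± 0.294 (SD). The difference of log2 shares, taken within group, was −0.23 (two-sided exact permutation test within group, p = 0.463, adjusted p = 0.794 over 12 share tests). Without GFP_OE without UV it was −0.42, without GFP_OE 4 −0.41, and without GFP_OE 3 or WT without UV −0.057. The UV libraries were lower in 3 of 4 groups, and the GFP_OE pair differed from its control in opposite directions. Within a sequencing run, the difference was −0.36 in run 2 (GFP_OE), −0.29 in run 4 (mutZn) and −0.21 in run 6 (D27aa), with 1 library on each side. The header of the run 2 control (1.45%) calls it truncated. RRM_OE 3 of the same run (1.96%) shares this word and GFP_OE 3 (1.15%) does not. No WT library shared a run with its control.

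The 4 piCLIP immunoprecipitates averaged 0.431% ± 0.199 and the 2 IgG libraries 0.963% ± 0.969. Their difference within fraction was −0.80 on the log2 scale (exact permutation test, p = 0.222, adjusted p = 0.667, smallest possible p 0.111). It was −0.096 without mono_IgG, the library with 19 locus events, and −1.50 without poly_IgG. Both fractions lay in run 1.

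Across all 6 sets of a group with its controls, the 13 immunoprecipitates averaged 0.853% ± 0.703 and the 7 controls 1.91% ± 2.29. The difference was −0.61 on the log2 scale, and the immunoprecipitates were lower in 6 of 6 sets. The exact permutation test gave p = 0.0288, and the adjusted p of 0.346 did not pass 0.05. Without GFP_OE without UV the difference was −0.80 and the exact permutation test gave an adjusted p of 0.0247. It shrank to −0.42 without GFP_OE without antibody and to −0.43 without mono_IgG (exact permutation test, adjusted p = 0.605 and 0.667). Within runs the difference was −0.80 in run 1, −1.49 in run 2, −0.29 in run 4 and −0.21 in run 6.

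The relation of single controls to their own immunoprecipitates can be read against other windows of the genome. The WT control without UV lay above all 3 WT libraries at the locus, as did 29% of the 6425 windows with at least 3 expected events. For mutZn the control lay above both libraries, as in 42.2% of 4208 windows, and for D27aa as in 42% of 981 windows. For mono_IgG it was above both, as in 6.67% of 15 windows, that is in the locus and no other of them. Windows outside these 15 could also lie above both, so the locus is not singled out. The largest mono_IgG window held 8.59% of its events, while no window passed 2.24% in mono_IP 1 or 1.11% in mono_IP 2. The locus ranked 5 in mono_IgG. The library without antibody lay above both GFP_OE libraries at the locus, as in 25% of 12 windows.

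Neither variant of the tagged protein passed the test against WT in the share at the locus. The mean was 0.675% ± 0.0662 in mutZn and 0.741% ± 0.205 in WT (SD, n = 2 and 3), a difference of −0.10 on the log2 scale (exact permutation test, p = 0.8, adjusted p = 0.873). The mean was 0.800% ± 0.0820 in D27aa, 0.14 above WT on the log2 scale (exact permutation test, p = 0.7, adjusted p = 0.840). In both comparisons the libraries overlapped, and the smallest p that 2 against 3 libraries allow is 0.1. The mutZn libraries both lay below the D27aa libraries, by 0.25 on the log2 scale (exact permutation test, p = 0.333, the smallest possible with 2 against 2 libraries). Of all 31909 windows tested between mutZn and D27aa, 53.8% showed no overlap of the groups.

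A negative binomial quasi-likelihood test (limma-moderated) over all windows was run beside these share tests, and its scaling corrects for composition. Relative to WT, the log2 fold change of the locus was −0.20 ± 0.12 (SE) in mutZn with an adjusted p of 0.243, in a fit that called 21% of 31909 windows. It was 0.18 ± 0.12 in D27aa with an adjusted p of 0.544, where 3.06% of windows were called. Between mutZn and D27aa it was −0.38 ± 0.13 with an adjusted p of 0.140, where 2.55% were called. The 95% normal interval for mutZn against WT reached down to −0.44 and up to 0.03. This result depended on single libraries, since without WT 2 the log2 fold change was −0.35 with an adjusted p of 3.5e-05, and without WT 3 it was 0.070 with an adjusted p of 0.789.

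The polysomal libraries had lower shares at the locus than the monosomal ones, though no test passed, 0.263% ± 0.0490 in poly_IP and 0.598% ± 0.0687 in mono_IP (SD, n = 2 each). The groups did not overlap, and 43.4% of the 290 windows tested shared that property. The difference was −1.18 on the log2 scale (exact permutation test, p = 0.333, the smallest possible). The quasi-likelihood test with composition scaling put it at −0.44 ± 1.11 with an adjusted p of 1, and it called 0% of windows, with 8 windows at an unadjusted p under 0.05 and 0 called by limma-voom. The IgG libraries of the fractions had 0.277% for polysomes and 1.65% for monosomes, the same order.

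The 4 piCLIP immunoprecipitates lay below the iCLIP of the same tagged protein on average, at 0.431% ± 0.199 and 0.741% ± 0.205 (SD, n = 4 and 3). The difference was −0.86 on the log2 scale (exact permutation test, p = 0.171, adjusted p = 0.667), and mono_IP 1 and mono_IP 2 reached above WT 2. The protocols were sequenced in different runs and carry different result types in their headers, so protocol and run cannot be told apart.

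Among the overexpression libraries taken with anti-SRSF7, no pair of groups passed a test. The means were 2.47% ± 0.712 in RRM_OE, 2.90% ± 0.445 in endo_OE and 2.10% ± 1.34 in GFP_OE (SD, n = 2 each). The log2 difference was 0.37 for RRM_OE against GFP_OE (p = 1), −0.25 for RRM_OE against endo_OE (p = 0.667) and 0.62 for endo_OE against GFP_OE (p = 0.667) in exact permutation tests. All 3 pairs overlapped. Within run 3 the differences were −0.03, 0.04 and −0.08, and within run 2 RRM_OE was 0.77 above GFP_OE. The quasi-likelihood test gave 0.02 ± 0.83, −0.26 ± 0.83 and 0.28 ± 0.83 for the same 3 pairs, with 95% intervals as wide as −1.60 to 1.65 for RRM_OE against GFP_OE. It called 0% of 870 windows in each, with 23, 41 and 21 windows at an unadjusted p under 0.05, and limma-voom called 1, 0 and 1. The endo_WT library had 1.16%, below both endo_OE libraries of the same run, and has no replicate.

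GFP_OE with anti-SRSF7 and WT with anti-GFP carry the same genotype label and were set side by side. The 2 GFP_OE libraries averaged 2.10% ± 1.34 and the 3 WT libraries 0.741% ± 0.205, and the groups did not overlap, as in 32.4% of 14932 windows. The share differed by 1.37 on the log2 scale (exact permutation test, p = 0.1, the smallest possible, adjusted p = 0.6). The quasi-likelihood test put the locus 1.60 ± 0.26 higher with anti-SRSF7, a 3.02-fold difference with an adjusted p of 0.010, in a comparison that called 0.696% of windows (104 of 14932). The call was lost without WT 3 (adjusted p = 0.301), without WT 4 (0.607) and without GFP_OE 4 (0.711), where the log2 fold change fell to 0.82, and it was kept without WT 2 and without GFP_OE 3. The adjusted p also rose to 0.098 with windows of 5000 nt. The antibodies were sequenced in different runs, so antibody and run cannot be told apart.

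Depth and the locus share showed no clear relation. Over the 7 UV anti-GFP libraries, log10 of the library total and log2 of the share had a Pearson r of −0.07 and a Spearman rho of −0.07 (exact permutation p = 0.894 and 0.906). Without the 2 deepest, mutZn 3 and mutZn 4, r was 0.34. Over the 7 UV anti-SRSF7 libraries r was −0.16 and rho 0.04 (exact permutation p = 0.720 and 0.963), and r was −0.79 without GFP_OE 4 and RRM_OE 3. Over the 7 controls r was −0.43 and rho −0.57 (exact permutation p = 0.377 and 0.2), and r was −0.51 without mono_IgG and WT without UV. Over all 25 libraries r was −0.22 and rho −0.15 (permutation p = 0.3 and 0.466). None of these 4 relations passed after adjustment (adjusted p for r 0.754 to 0.894).

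The 3 shallowest libraries, mono_IgG, GFP_OE without UV and GFP_OE without antibody, had 1.65%, 1.45% and 7.01%, whereas the 3 deepest, mutZn 3, mutZn 4 and WT 4, had 0.628%, 0.721% and 0.721%. The 3 lowest shares came from the polysomal libraries, which held 11177 to 23145 events. Depth within the controls thus did not order the shares, since poly_IgG had a total between those of the libraries with 7.01% and 0.993%.

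**Figure D2:**
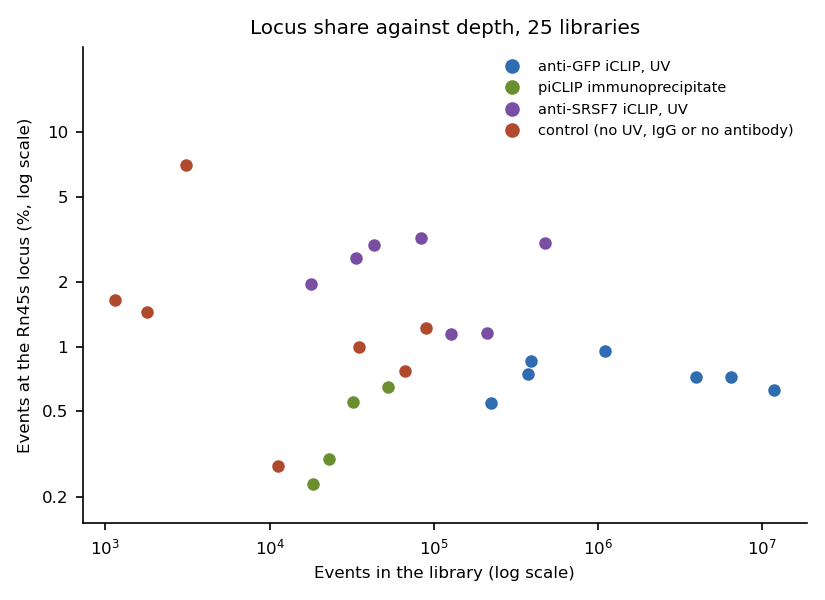
Share of events on the Rn45s locus against the number of events in the library, both on log scales, for 25 libraries. The deepest libraries sit near 0.7% while the shallow controls spread from 0.277% to 7.01%.

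Deeper libraries filled more positions of the locus. In mutZn 3 the 73970 events fell on 4444 positions, 16.6 events per position, and those positions made up 72.3% of the 6144 nt between the first and last crosslinked nucleotide. In WT 4 they made up 56.4%, in D27aa 1 15.3%, and in D27aa without UV 4.23%. Across all positions of the genome, the same libraries had 1.02 to 1.19 events per position. If each position was counted once, the share at the locus fell to 0.0448% in mutZn 3 and was 0.762% in D27aa without UV. On that count the share followed depth closely in the UV anti-GFP libraries, with r = −0.97 (exact permutation adjusted p = 0.0016, n = 7) and r = −0.92 without mutZn 3 and mutZn 4, so shares of events rather than of positions were used throughout.

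Events did not cover the whole window. The first lay at position 39979938 and all but 1 of the rest ended at 39985750, with a single event at 39986081, so that 60 of 150 bins of 100 nt held any. Over the 25 libraries 4998 positions were used. The profile rose in a stretch of 1900 nt, positions 39983301 to 39985200, which held 120291 of the events and is called the dense stretch below. The stretch before it (39979901 to 39983300) and the stretch after it (39985201 to 39986100) were less filled. These limits were set after the profile had been seen, so the shares of the stretches are descriptions without a test. The only matching RefSeq entry on chromosome 17 in the table given, a pseudogene named Rn18s-rs5 in a different assembly, has a length of 1849 nt, and its place in mm9 was not looked up. The dense stretch was therefore not assigned to it. No sequence of the locus is printed, since no mm9 genome was used here.

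The dense stretch held 59.5% and 60.8% of locus events in mutZn, 69.9% and 66.4% in D27aa and 74.9%, 71.1% and 66.3% in WT. Without UV it held 62.2% for mutZn, 59.7% for D27aa and 75.5% for WT, above both mutZn libraries, below both D27aa libraries and above all 3 WT libraries. In piCLIP it held 94.2% and 88.1% in poly_IP, with 96.8% in its IgG library, and 96.2% and 91.5% in mono_IP, with 78.9% (15 of 19 events) in its own. All 4 piCLIP immunoprecipitates were above every UV anti-GFP library, and the stretch before held 2.06% to 11.9% of their locus events, compared with 21.4% to 31.8% in UV anti-GFP iCLIP.

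Among the anti-SRSF7 libraries the dense stretch held 85.1% and 76.8% in RRM_OE, 83.3% and 77.1% in endo_OE, 64.8% in endo_WT and 63.8% and 54.6% in GFP_OE. GFP_OE without UV had 61.5% (16 of 26) and GFP_OE without antibody 81.9%. RRM_OE and endo_OE lay above GFP_OE without overlap. As a share of the whole library, the stretch before the dense one ranged from 0.013% to 0.037% in the piCLIP immunoprecipitates and from 0.117% to 0.242% in UV anti-GFP iCLIP.

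**Figure D3:**
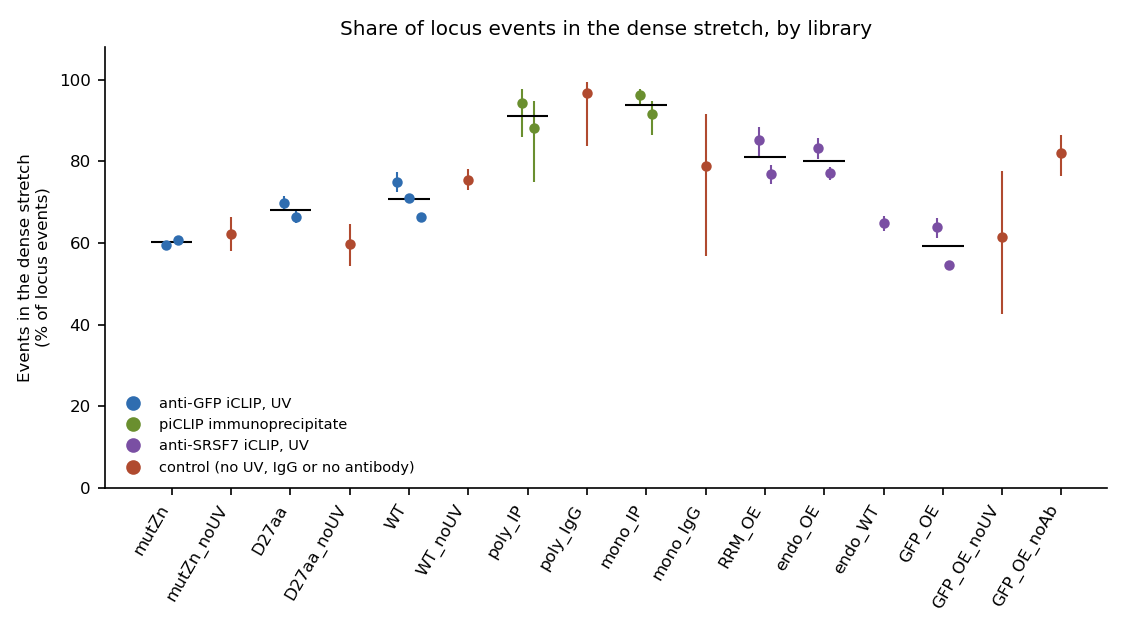
Percent of locus events that lie in the dense stretch of 1900 nt, for each of 25 libraries, with 95% Wilson intervals and black lines for group means. The piCLIP immunoprecipitates lie at 88.1% to 96.2% and the mutZn libraries near 60%.

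The 5 bins of 100 nt with most events in the UV anti-GFP libraries all lay in the dense stretch, side by side. The first, at 39984401, held a mean of 10.4% of locus events (SD 2.49, n = 7), that at 39984801 9.84% (SD 2.96), that at 39984701 7.82% (SD 3.00), that at 39984601 7.66% (SD 2.17) and that at 39984501 4.32% (SD 2.03). Their summed share was 31.2% and 32.5% in mutZn, 46.9% and 43.5% in D27aa and 48.6%, 41.1% and 36.3% in WT.

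The tagged variants filled these bins unevenly. In the bin at 39984401 D27aa had 14.3% and 13.3%, mutZn 7.76% and 8.12%, and WT 9.65%, 10.4% and 9.29%. In the bin at 39984501 D27aa was lowest, with 1.47% and 1.83% in D27aa, 4.41% and 4.74% in mutZn and 5.53%, 7.17% and 5.11% in WT. At 39984701 D27aa had 11.97% and 10.55%, mutZn 5.00% and 5.36%, and WT 10.4%, 5.72% and 5.74%, so WT 2 came close to D27aa.

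The groups did not overlap in 36.7% of the 60 bins between D27aa and WT, where D27aa was higher in 12 and lower in 10. They did not overlap in 60% of bins between mutZn and WT, where mutZn was higher in 30 and lower in 6. Of these 30 bins, 24 lay before the dense stretch. That part is also the longest, with 3400 nt, against 1900 nt in the dense stretch and 900 nt after it. Since bins are shares of locus events, a lower share in the dense stretch raises the shares elsewhere. Between mutZn and D27aa they did not overlap in 83.3% of bins. The libraries without UV had 9.51% in the bin at 39984401 for D27aa, 8.77% for mutZn and 7.18% for WT.

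Endogenous SRSF7 in overexpressing cells gave its highest bin at 39984401, with 24.1% and 21.3% in endo_OE, 9.54% in endo_WT, and 13.1% and 6.20% in GFP_OE. GFP_OE without antibody had 23.6% there, the same level as endo_OE, and GFP_OE without UV 15.4% (4 of 26 events). At 39984601 endo_OE had 13.3% and 13.8%, GFP_OE 4.79% and 6.91% and the library without antibody 4.17%. The groups endo_OE and GFP_OE did not overlap in 56.7% of bins.

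In piCLIP the bin at 39984601 held 43.5% and 11.9% of locus events in poly_IP and 28.5% and 19.9% in mono_IP, while the poly IgG library had 3.23% (1 of 31) and mono IgG 31.6% (6 of 19). The bin at 39984401, the highest of UV anti-GFP iCLIP, held 1.45% and 0% in poly_IP and 3.82% and 2.84% in mono_IP. The 0% of poly_IP 2 was 0 of 42 events, which allows a share of up to 7.14%. In poly_IP 2 the highest bin was at 39983501 with 12 of 42 events, and in the poly IgG library at 39984701 with 10 of 31. The fractions did not overlap in 13.3% of bins.

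**Figure D4:**
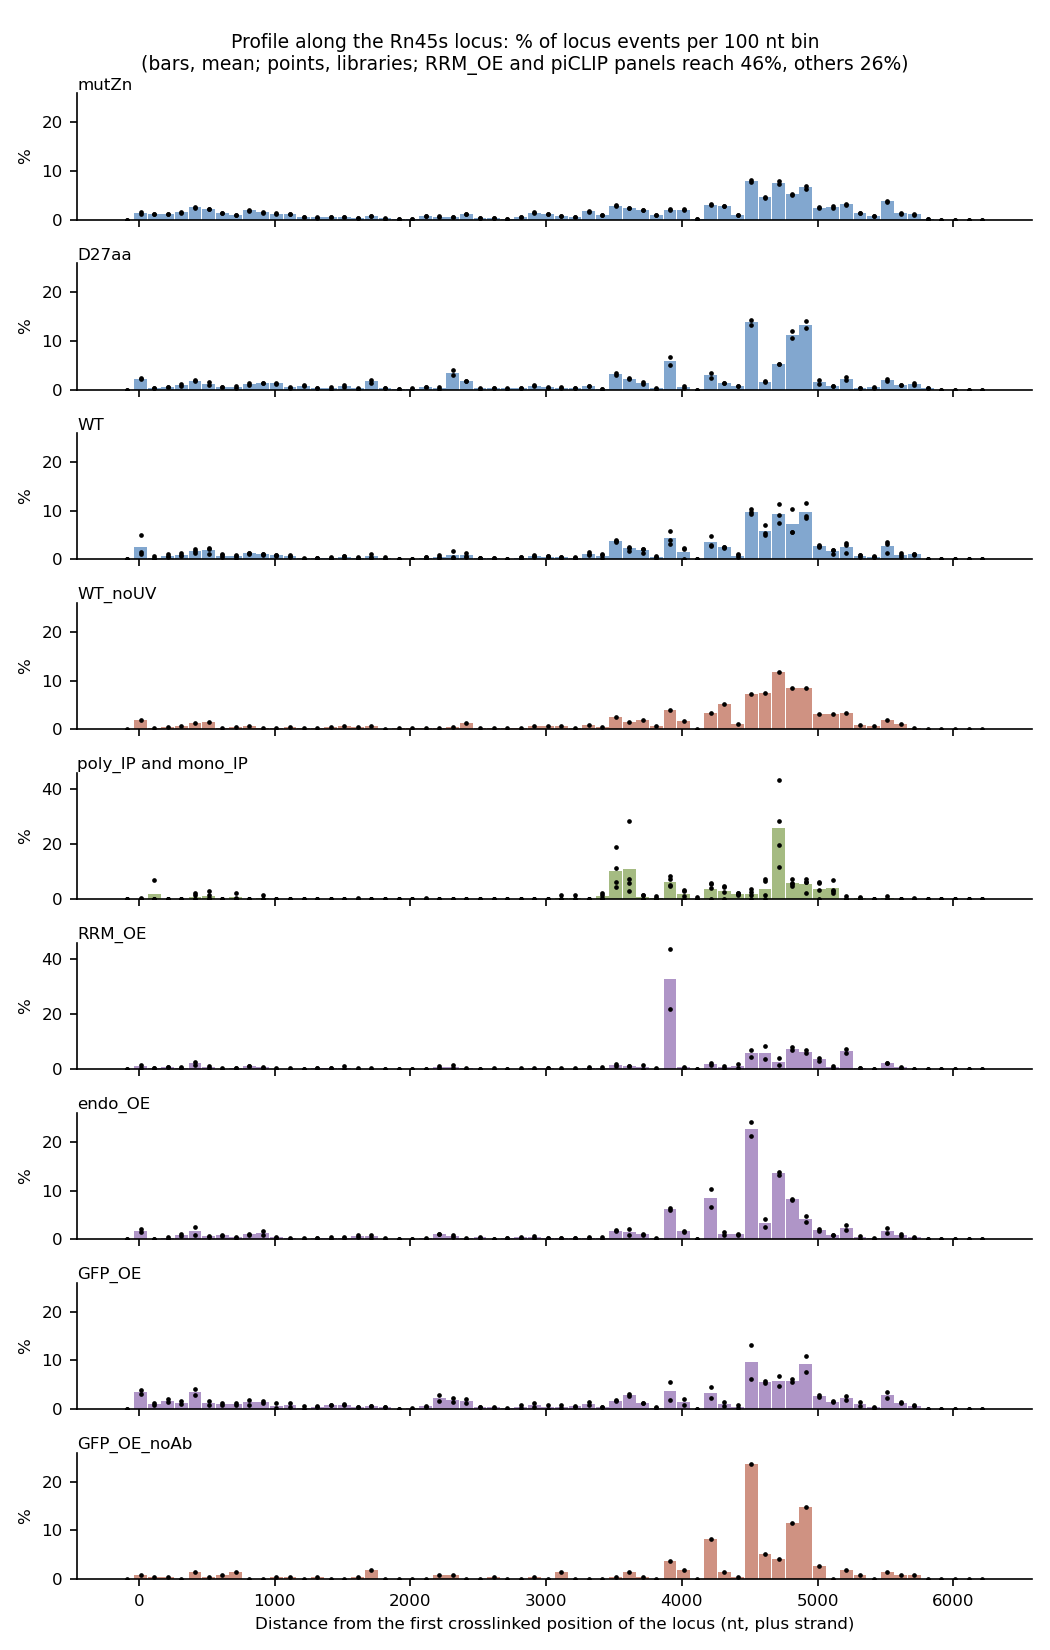
Percent of locus events in each bin of 100 nt along the Rn45s locus, by distance from the first crosslinked position. Bars are group means and points are libraries. RRM_OE and piCLIP panels have a taller axis. The main block of events lies in the bins that start 3363 to 5163 nt from the first position, and RRM_OE has a single bin at 32.8% on average.

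The RRM_OE libraries had their highest bin at another place. The bin at 39983801 held 43.6% and 22.0% of its locus events (152 of 349 and 281 of 1277), compared with 5.998% and 6.32% in endo_OE, 3.18% in endo_WT and 5.54% and 1.90% in GFP_OE. It is the highest bin in both RRM_OE libraries and in no other library. The events crowd into positions 39983826 to 39983844, 19 nt that held 40.1% and 20.4% of locus events in RRM_OE, 4.96% and 4.68% in endo_OE, 1.88% in endo_WT and 3.97% and 1.11% in GFP_OE. In the 7 UV anti-GFP libraries this stretch held 0.924% to 3.50%. Most RRM_OE events lay on neighbouring positions, with 11.2% and 3.21% at 39983830 and 7.16% and 4.46% at 39983829. After position 39983846 the rest of this bin held no event in any library.

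Among the controls, WT without UV had 19 of 1087 locus events in this stretch (1.75%) and mutZn without UV 11 of 513 (2.14%), above the 1.07% and 0.924% of the mutZn libraries. GFP_OE without UV had 0 of 26 there, which allows up to 11.5%, and GFP_OE without antibody had 3 of 216. D27aa without UV had 0 of 347, which allows up to 0.865%. The mono IgG library had 3 of 19 (15.8%) and poly IgG 0 of 31. The stretch was found from the RRM_OE values, so its share is a description with no test. Without the whole bin, the locus share was 1.11% and 2.32% in RRM_OE, 2.43% and 3.01% in endo_OE and 1.09% and 2.99% in GFP_OE. RRM_OE and GFP_OE did not overlap in 58.3% of the 60 bins, where RRM_OE was higher in 4 and lower in 31, and RRM_OE and endo_OE did not overlap in 36.7%.

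**Figure D5:**
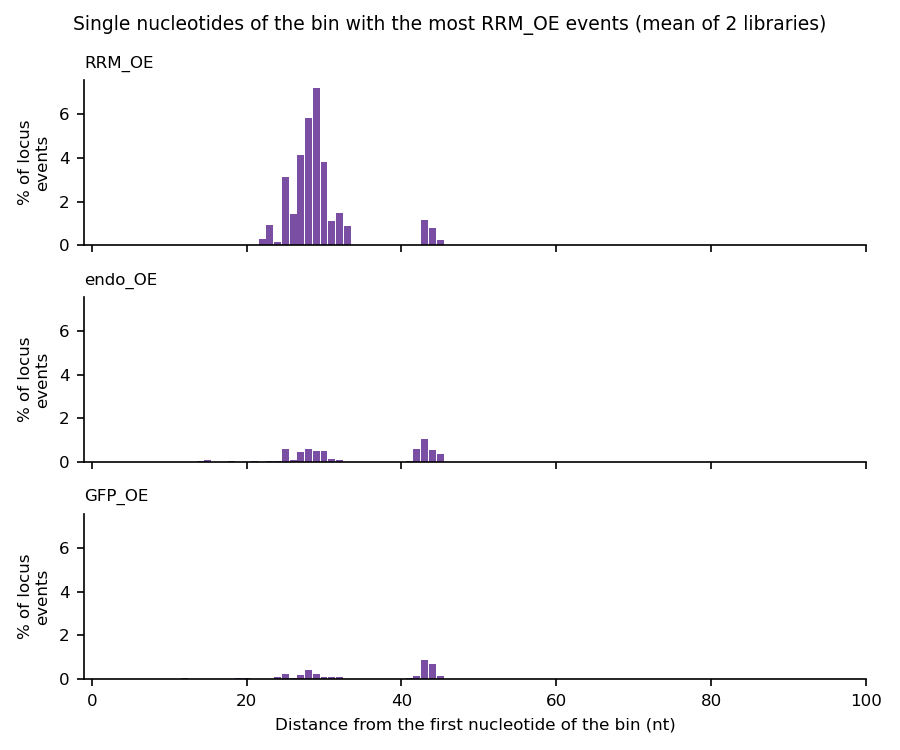
Percent of locus events at single nucleotides of the bin with the most RRM_OE events, by distance from the first nucleotide of the bin, as the mean of 2 libraries each of RRM_OE, endo_OE and GFP_OE. RRM_OE reaches 7.19% at its highest position, with a run of neighbours above 1%.

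Single positions varied more between libraries than bins did. The 5 with the highest mean share in UV anti-GFP iCLIP were 39984882, 39984552, 39984126, 39984457 and 39984455. At 39984882 D27aa had 2.64% and 3.48%, mutZn 0.234% and 0.269%, and WT 3.80%, 0.609% and 0.438%. At 39984552 WT 2 had 3.22% and WT 3 1.84%, but WT 4 0.246%, so libraries of 1 group differed widely. This position was the highest of all in 6 libraries, among them WT without UV with 2.21% and GFP_OE without antibody with 4.63%.

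Profiles over the 60 bins were compared by Pearson r across bins in the 18 libraries with at least 300 locus events, as a description. Libraries of the same group had r of 0.855 to 0.995 in 8 pairs. WT without UV had r of 0.930, 0.930 and 0.919 with the 3 WT libraries, mutZn without UV 0.930 and 0.928 with mutZn, and D27aa without UV 0.732 and 0.753 with D27aa, but 0.890 with WT 4. The profile of D27aa without UV, which rests on 347 locus events, was thus nearer to WT 4 and mutZn than to its own genotype. The library of mutZn without UV likewise had a slightly higher r with WT 4 (0.934) than with mutZn. WT 4 and both mutZn libraries are the deepest of the 25, and the part of depth in these r was not tested. The RRM_OE libraries had r of 0.924 with each other and 0.196 to 0.601 with the other 16.

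The authors' peak lists show how the locus weighs in each. The values in these lists are the authors' own, made from summed libraries. The authors' list for mutZn had 2526 peaks in the locus of 2246120 (0.112%), that for D27aa 988 of 34759 (2.84%) and that for WT 2463 of 2045481 (0.120%). The header of the WT list names 4 input files, while 3 WT libraries were analysed here. Without UV the share of peaks was 9.96% for mutZn (247 of 2481), 18.4% for D27aa (156 of 847) and 12.5% for WT (459 of 3666). Each of these shares was above that of the UV list of the same genotype. A share of peaks counts each position once, so it cannot be told apart from the size of the list. By peak events the locus held 2.20% for mutZn, 5.93% for D27aa and 1.18% for WT. Without UV it held 10.9% for mutZn, 18.2% for D27aa and 12.7% for WT. Peak events lie only at positions called as peaks, so these shares also depend on the list. Over all events the libraries without UV lay much nearer to the UV means. The shares were 0.769% against 0.675% for mutZn, 0.993% against 0.800% for D27aa and 1.22% against 0.741% for WT.

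The piCLIP list, which pools both fractions, had 228 of 20437 peaks in the locus (1.12%), 215 of them in the dense stretch. The IgG lists had none, with 5 peaks in all for mono and 192 for poly. Of the mutZn peaks 88.8% were also WT peaks, and 91.1% of the WT peaks were mutZn peaks. Of the D27aa peaks 90.2% were WT peaks, which is 36.2% of the WT peaks. Of the peaks of the lists without UV, 97.6% were also peaks of mutZn, 66.0% of D27aa and 99.8% of WT, each in the list of the same genotype. They made up 9.54% of the mutZn peaks, 10.4% of the D27aa peaks and 18.6% of the WT peaks. The 2463 WT peaks lay between 39979938 and 39985047 and the 2526 mutZn peaks between 39979939 and 39985047. Many positions there were thus peaks of each list, and a high overlap with either does not by itself show shared sites. No peak of any list lay beyond 39985047, although events went on to 39985750.

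Other windows whose share followed that of the locus were few and weak. Of 99 windows with at least 3 events in at least 20 libraries, the most alike was the minus strand of chr11:108870001-108885000, with r = 0.52 over 25 libraries, followed by the plus strand of chr3:127245001-127260000 with 0.50. The other 3 of the closest 5 (the minus strand of chr16:57390001-57405000, the minus strand of chr4:131895001-131910000 and the plus strand of chr6:3150001-3165000) had 0.46 each. The median over the 99 windows was −0.02. All libraries enter each r, so depth and library type are shared by the points.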

How the data were processed

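Per the file headers, the authors deposited for each library a signed score per crosslinked nucleotide, the number of cDNAs at that position on mm9 with annotation Ensembl 59, where a minus sign marks the minus strand. The submitters' processing notes name CASAVA 1.4. Aligner and duplicate removal were not given in the sources used here. The authors' peaks, per the file headers, came from 100 permutations with a 15 nt neighbourhood and a threshold of 0.05 on the false discovery rate.

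For each library, scores were added up on each strand over windows of 15000 nt. Shares of library events were compared on the log2 scale (0.5 event added) by exact permutation tests, with Benjamini-Hochberg adjustment over 12 tests. The window test was a quasi-likelihood test on a negative binomial model (R 4.3.3, limma 3.58.1), adjusted over all windows that reached the rate of 10 events at the median library total and 15 events in all. It took the place of planned count tests of standard packages, since the deposited score is signed. The sign marks only the strand and the window sums are unsigned, so the sign alone did not require this change. The window test was checked on simulated counts of known fold, where it recovered 52.2% to 94.0% of 4-fold changes, depending on the comparison. The simulated spread was the same fixed value in every comparison. The check therefore does not show how the test does at the spread of these data. Bins, positions and similar windows were named by fixed rules: the 5 highest over 7 UV anti-GFP libraries, the highest bin of each other library, and the 5 windows most alike. The locus and these rules were chosen with earlier results of these data known. Python 3.11.15 was used elsewhere. Depths are in the report.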

Additional observations from a re-analysis of the deposited data

How the results depend on the processing

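Of 247 alternatives to 24 results, 212 kept direction and side of the threshold, 21 reversed the sign, 9 passed the threshold only there and 5 lost it. The cause of these changes was not tested except where named. Share tests of 2 against 2 or 2 against 3 libraries have a smallest possible p of 0.333 or 0.1. They could not pass in any setting, so for them only the sign could change. Log2 differences are given throughout. With each position counted once, the share of piCLIP immunoprecipitates against WT was 0.80, immunoprecipitates against all controls −1.88, the window test −1.83 for mutZn against WT and −2.53 for mutZn against D27aa, and the depth relation r = −0.97 in UV anti-GFP iCLIP and −0.78 over all 25 libraries. By construction this setting limits a deep library to the positions of the locus. Without the filter on low windows the window test gave 0.10 for mutZn against WT, −0.047 for D27aa against WT, 0.15 for mutZn against D27aa, −0.99 for RRM_OE against GFP_OE and −0.33 for endo_OE against GFP_OE. With limma-voom mutZn against WT was −0.23 and passed (adjusted p = 0.014). With 5000 nt windows GFP_OE with anti-SRSF7 against WT with anti-GFP was 1.57 and did not pass. Within run 3 alone, shares differed by −0.035 for RRM_OE against GFP_OE, 0.043 for RRM_OE against endo_OE and −0.078 for endo_OE against GFP_OE.

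Replicate numbers are shared by 2 libraries a group at most, and same-numbered libraries deviated together with r = −0.0012 for mutZn and WT, 0.49 for poly_IP and mono_IP, 0.45 for RRM_OE and GFP_OE (whose numbers also match runs 2 and 3) and 0.048 for the antibody comparison. With the replicate number as a block, the window test gave −0.34 for mutZn against WT, which passed, and 1.32 for the antibody comparison, which did not. The block changed no other call.

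Leaving out 1 library in turn, shares ranged from −0.30 to 0.10 for mutZn against WT, −0.056 to 0.35 for D27aa against WT, −0.33 to 1.07 for RRM_OE against GFP_OE, −0.55 to 0.043 for RRM_OE against endo_OE, −0.078 to 1.32 for endo_OE against GFP_OE, −0.42 to −0.057 for UV against no UV, −1.50 to −0.096 for piCLIP IP against IgG and −0.80 to −0.42 for immunoprecipitates against all controls, which passed (adjusted p = 0.0247) without GFP_OE without UV. In the window test the ranges were −0.35 to 0.070, −0.038 to 0.39, −0.50 to 0.93, −0.81 to 0.058 and −0.17 to 1.16 for the first 5 of these comparisons, and 0.82 to 2.11 for the antibody comparison. Depth limits the controls and piCLIP most, with 19 to 340 locus events in 8 of these libraries.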
